A study of Mus musculus with 18 samples.

Results

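The genes described here carry names of histone lysine methyltransferase and demethylase families. They were taken by name alone: every gene whose symbol is Kdm, Kmt or Setd followed by a number and at most 1 letter. A name does not establish that activity for each member, as with Setd3 below. There were 34 of them among the 25628 genes listed for experiment 1 and the same 34 among the 26903 genes listed for experiment 2. Of these, 32 passed edgeR's filter on low counts in both experiments and are called tested here. Kdm4d and the Y-linked Kdm5d did not. Enzymes of the same classes that carry other names, such as Ezh2 or Ehmt2, were kept apart as lists of partners.

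Histone methyltransferases of the KMT and SETD families place methyl groups on lysines of the histone tails, and demethylases of the KDM families take them off. Methylated H3K4 is typical of active promoters and enhancers, H3K36 methylation of transcribed gene bodies, and H3K9, H3K27 and, for its trimethylated form, H4K20 methylation of repressed chromatin. In red cell precursors the demethylase KDM1A (LSD1) works with the repressor GFI1B and the CoREST proteins, in complexes that also hold the histone deacetylases HDAC1 and HDAC2.

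The libraries are polyadenylated RNA of the TgSpi1 erythroleukemic line #763, mouse leukemic erythroid cells from bone marrow that carry a Spi1 transgene and a doxycycline-inducible hairpin against Spi1, which encodes the transcription factor SPI1 (PU.1). All groups were grown with EPO, all come from this single line, and no group carried a control hairpin, so doxycycline stands for the drug and the hairpin together. Experiment 1 compared cells without doxycycline (Exp1_NoDox) with cells given it for 48 h (Exp1_Dox). Experiment 2 crossed 48 h of doxycycline with 6 h of 3 µM entinostat, an inhibitor of class I histone deacetylases, or its vehicle DMSO, in the groups NoDox_DMSO, Dox_DMSO, NoDox_Entinostat and Dox_Entinostat. Each group had 3 libraries, which the submitters call biological replicates without saying whether they were separate cultures, so p-values measure the spread between these libraries.

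Total counts ran from 82.7 to 114 M per library in experiment 1 and from 43.1 to 48.9 M in experiment 2. Spi1 RNA was lower in every library with doxycycline than in every library without it in experiment 1, in DMSO and in entinostat, and it fell in all 3 comparisons (log2 fold changes of -1.73, -1.29 and -1.59). In DMSO this call was lost without NoDox_DMSO library 2 or 3 or Dox_DMSO library 1 or 3 (edgeR, adjusted p between 0.0507 and 0.0903), with log2 fold changes between -1.35 and -1.03. All 9 erythroid markers were above 1 CPM (read counts scaled to a library of 1 M by TMM) in all groups, with a summed level of 2972 to 6372 CPM per library. Monocyte and macrophage markers summed to 1.33 to 17.6 CPM and were highest in NoDox_Entinostat (13.6 to 17.6 CPM). Marker sums for neutrophils, B cells, lymphocytes of the T and NK lineages, stroma and endothelium stayed at or below 3.57 CPM in sum. The part of other cells in the results was not tested.

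Some libraries stood apart from the others of their group over most of the 32 genes. The first Dox_DMSO library was the lowest of its group for 28 genes, with a median ratio of 0.690 to the mean of the other 2. The first NoDox_Entinostat library was the lowest for 29 genes, with a median ratio of 0.630. In experiment 1 the first library was the highest for 28 genes without doxycycline (median ratio 1.35) and for 29 with it (1.41). The spread was wide for the long H3K4 methyltransferase genes: the first Exp1_NoDox library held 4.71 times the Kmt2a level of the second and 4.33 times that of Kmt2c, against 0.933 times for Setd3. Across the 32 genes this ratio had a Spearman's rho of 0.53 with exon length, a description within a pair of libraries. The experiment 2 results are therefore also given without the first Dox_DMSO and the first NoDox_Entinostat libraries, a choice made with their position known, which leaves these groups with 2 libraries. Leaving out the lowest library of a group raises the group's mean by construction. Shifts in that fit are therefore no test of direction for these genes. Experiment 1 is also given with the replicate number as a block, because libraries of the same number deviated together.

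**Figure D1:**
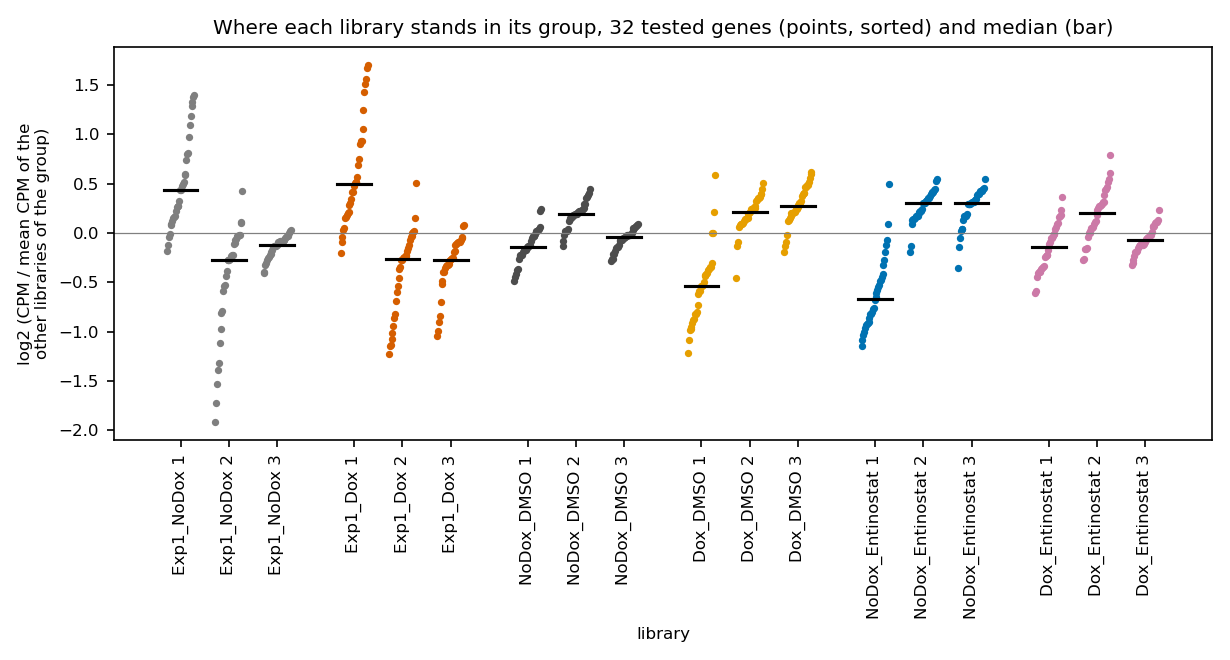
Each library's level of 32 tested genes relative to the mean of the other libraries of its group, as log2 ratios (points) with their median (bar). The first Dox_DMSO and first NoDox_Entinostat libraries sit below 0 for most genes, and the first library of both experiment 1 groups sits above 0.

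Per kb of merged exon, the level of the H4K20 monomethyltransferase gene Kmt5a was the highest, at 45.9 ± 0.68 CPM per kb in NoDox_DMSO (SD, n = 3) and 40.1 ± 8.5 in Exp1_NoDox. Kdm1a, whose product removes methyl groups from mono- and dimethylated H3K4, followed with 35.4 ± 0.40 and 32.01 ± 3.98 CPM per kb. Kdm4a, a demethylase gene for trimethylated H3K9 and H3K36, came next with 24.9 ± 2.2 and 25.2 ± 1.8 CPM per kb. These 3 genes kept this order in both groups, with Kmt5a and Kdm1a overlapping in their spread in Exp1_NoDox. Further down, some neighbours overlapped in their spread, as did Setd6 (14.7 ± 1.4 CPM per kb) and the H3K4 demethylase gene Kdm5c (14.7 ± 1.2) in NoDox_DMSO. Others did not, as with Kdm5c and Setd3 (10.8 ± 0.34 CPM per kb) in that group. At the lower end of the tested genes stood Kmt2c, an H3K4 methyltransferase gene of enhancers, at 1.75 ± 0.35 and 1.97 ± 1.3 CPM per kb. Kmt5b (2.26 ± 0.20), Kdm7a (2.32 ± 0.24) and Kmt2d (2.58 ± 0.27) were also low in NoDox_DMSO, and neighbours in this order differed by less than the larger of their SDs.

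Kdm4d had between 0 and 9 counts in any library. Its counts over the 3 libraries of a group summed to 3 in NoDox_DMSO, 1 in Dox_DMSO, 16 in NoDox_Entinostat and 12 in Dox_Entinostat. Kdm5d, on the Y chromosome, had 1 count in a single library of experiment 2 and the table's lowest value of 1 in all 6 libraries of experiment 1. Neither gene passed edgeR's filter on low counts, and both are at or near the limit of detection at this depth.

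**Figure D2:**
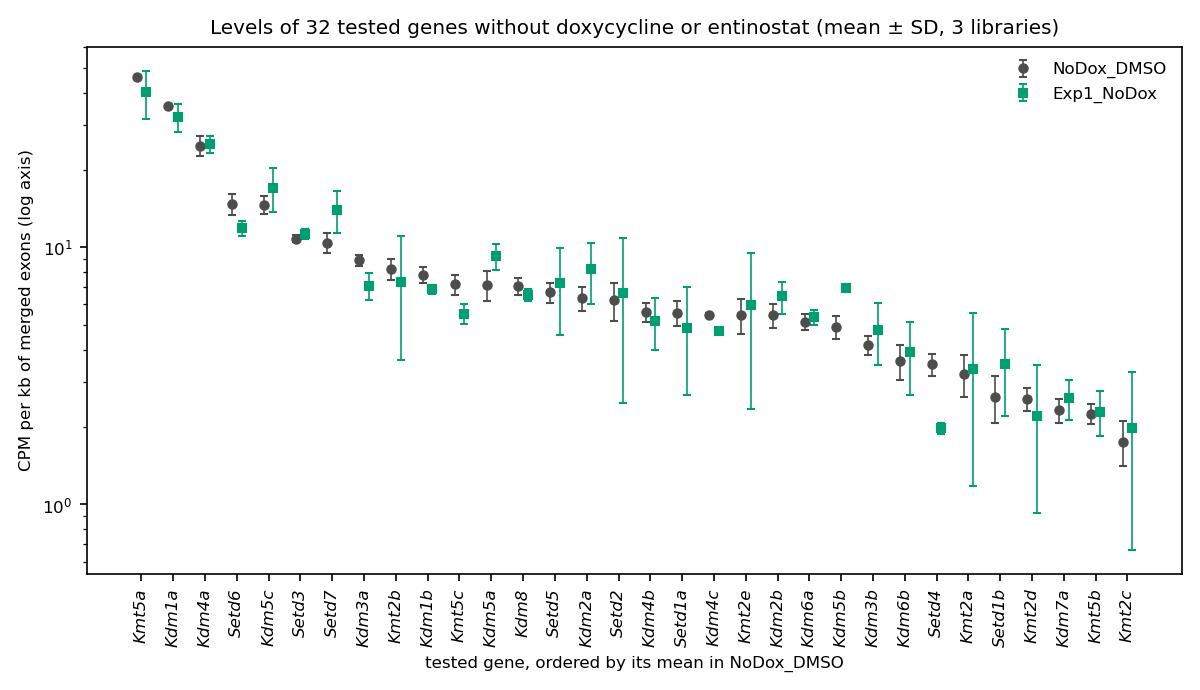
Mean level per kb of merged exon (log axis, CPM per kb ± SD, 3 libraries) of the 32 tested genes in the groups without doxycycline or entinostat of both experiments. Kmt5a, Kdm1a and Kdm4a lead in both, and Kmt2c, Kmt2a and Setd2 have the widest error bars relative to their level in Exp1_NoDox.

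The first comparison asked how these genes differ after 48 h of doxycycline, where Spi1 RNA was lower too. Effects of the drug and of the hairpin cannot be told apart here. Kdm7a, a demethylase gene for H3K9 and H3K27, and Kmt5c, a methyltransferase gene for the di- and trimethylated forms of H4K20, rose in experiment 1 and again in DMSO, in separate libraries. With all libraries and without the replicate block, no tested gene of the 34 fell in either comparison. With that block, 5 genes fell in experiment 1, as given below. In bulk RNA, fewer cells that express a gene and less RNA of it per cell cannot be told apart.

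Kdm7a (ENSMUSG00000042599, mm10 chr6:39136623-39206789, minus strand) and Kmt5c (ENSMUSG00000059851, mm10 chr7:4740115-4747514, plus strand) are shown by 200 bases upstream of their RefSeq start (GRCm38.p6, chr6:39206790-39206989, minus strand, and chr7:4739915-4740114, plus strand). They are shown because these were the members that rose with doxycycline in both experiments. The stretches were placed so that no base lies in the GENCODE gene, and both end right beside it. Capitals mark GGAA or its reverse complement TTCC, the core recognised by ETS factors such as SPI1.
Kdm7a: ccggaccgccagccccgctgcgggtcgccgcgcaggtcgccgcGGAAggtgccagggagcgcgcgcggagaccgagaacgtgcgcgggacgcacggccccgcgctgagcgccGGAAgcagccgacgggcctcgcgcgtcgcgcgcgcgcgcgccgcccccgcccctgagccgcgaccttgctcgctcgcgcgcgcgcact
Kmt5c: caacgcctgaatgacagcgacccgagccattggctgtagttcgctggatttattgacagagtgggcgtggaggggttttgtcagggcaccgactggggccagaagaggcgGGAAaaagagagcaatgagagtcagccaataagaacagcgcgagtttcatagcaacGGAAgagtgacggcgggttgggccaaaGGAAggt
GGAA was found 2 times in the Kdm7a stretch and 3 times in that of Kmt5c, counting both strands. Of 32851 RefSeq promoter stretches of the same length, which were not trimmed at the GENCODE gene, 89.0% held at least 1. Their median was 2, so these letters do not set the pair apart. Among the 19 genes of this group with such a stretch, 68.4% held at least 1. A match of letters is a description and not a bound site.

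Kdm7a RNA stood at 23.9, 31.3 and 22.8 CPM in Exp1_NoDox and at 44.3, 60.5 and 41.1 CPM in Exp1_Dox. In DMSO it measured 21.5, 26.1 and 22.4 CPM without doxycycline against 36.2, 49.2 and 46.8 CPM with it. In both experiments every library with doxycycline lay above every library without it. Kdm7a thus rose by a log2 fold change of 0.90 ± 0.19 (standard error) in experiment 1 (adjusted p = 0.0283) and 0.92 ± 0.18 in DMSO (adjusted p = 0.00570), by edgeR's quasi-likelihood test with Benjamini-Hochberg adjustment over all genes tested. The summed level of the erythroid markers moved the same way, from 3520 to 4222 CPM per library in Exp1_NoDox to 5315 to 6372 CPM in Exp1_Dox, and from 3211 to 3519 CPM in NoDox_DMSO to 4463 to 5317 CPM in Dox_DMSO. Their part in the results was not tested.

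Kmt5c RNA stood at 24.4, 21.0 and 20.9 CPM in Exp1_NoDox and at 44.9, 33.3 and 34.1 CPM in Exp1_Dox. In DMSO it measured 29.0, 31.1 and 26.0 CPM without doxycycline against 51.1, 68.9 and 67.6 CPM with it. These groups did not overlap either. Its log2 fold change was 0.76 ± 0.14 in experiment 1 (edgeR, adjusted p = 0.0190) and 1.12 ± 0.17 in DMSO (adjusted p = 0.000960).

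In DMSO both calls held in each of 12 fits with 1 library left out. In experiment 1 neither held in all 6. Kdm7a lost its call without the first (adjusted p = 0.0765) or the third (0.127) Exp1_NoDox library, or the second (0.0658) or the third (0.0538) Exp1_Dox library, and with the trend over exon length and GC content removed (0.0536). Kmt5c lost it without the second (0.0610) or the third (0.0961) Exp1_NoDox library or the third Exp1_Dox library (0.0558). With the replicate block the adjusted p in experiment 1 was 4.84e-07 for Kdm7a and 4.28e-06 for Kmt5c.

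**Figure D3:**
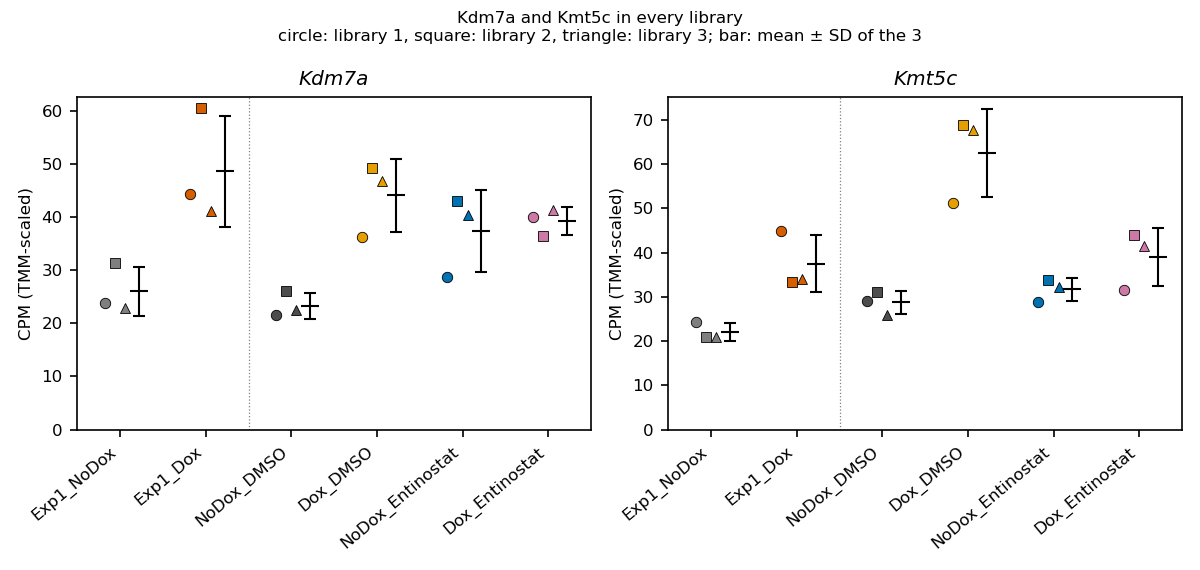
Kdm7a and Kmt5c in every library of the 6 groups (CPM, marker by library number) with the mean ± SD of 3 libraries. In both experiments the groups with doxycycline lie above those without it when no entinostat was given. In entinostat the groups with and without doxycycline overlap.

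Over the whole group, 2 of 32 genes rose and 0 fell in experiment 1, where edgeR called 5.26% of all genes higher and 8.36% lower. In DMSO 2 rose and 0 fell, against 3.77% and 5.53% of all genes. At an unadjusted p under 0.05 the counts were 5 higher and 0 lower in experiment 1, and 4 higher and 0 lower in DMSO. The share of all genes at this unadjusted threshold is not given here or below, so such counts have no background beside them. DESeq2 called 0 lower in experiment 1 (7.51% of all genes) and 0 in DMSO (6.32%). The median log2 fold change of the 32 genes was 0.04 in experiment 1, beside 0.02 over all genes, and 0.23 in DMSO, beside 0.05. Across the 32 genes these log2 fold changes had a Spearman's rho with exon length of -0.54 in experiment 1 and 0.10 in DMSO. The cause was not tested.

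With the replicate block, 12 genes rose and 5 fell in experiment 1, where 26.1% and 24.7% of all genes were called. The changes called only with the block were small. Kdm4a measured 158, 142 and 137 CPM without doxycycline against 193, 166 and 169 CPM with it with a log2 fold change of 0.27 with the block (adjusted p = 0.000144). Kdm6b, a demethylase gene for di- and trimethylated H3K27, stood at 37.0, 20.9 and 23.5 CPM and at 54.9, 26.6 and 30.9 CPM, a log2 fold change of 0.44 with the block (adjusted p = 0.000140). For both genes each library with doxycycline lay above the library of the same number without it, and for Kdm6b the groups overlapped. The 5 that fell with the block were Kdm1a, Kdm2a, Kdm5a, Kdm5b and Kmt5b, among them Kdm1a with -0.13 (adjusted p = 0.0107) and Kmt5b with -0.19 (adjusted p = 0.00547).

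Kdm1a stood at 187, 147 and 163 CPM in Exp1_NoDox and at 174, 136 and 145 CPM in Exp1_Dox. The groups overlapped, and in DMSO they did not, with 181, 186 and 184 CPM without doxycycline and 121, 172 and 169 CPM with it. The log2 fold change in DMSO was -0.25 ± 0.20 (edgeR, adjusted p = 0.582) and did not pass the test.

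In DMSO the count depended on the first libraries. Without the first Dox_DMSO and first NoDox_Entinostat libraries, 20 of 32 genes rose, where 17.4% of all genes did. With the replicate block 4 rose (5.89% of all genes), the further genes being Kdm6b and Setd1b. Kdm6b stood at 23.6, 29.5 and 22.2 CPM in NoDox_DMSO and at 27.3, 40.4 and 49.99 CPM in Dox_DMSO, where the lowest library is the first. Its log2 fold change was 0.65 ± 0.26 with all libraries (edgeR, adjusted p = 0.168) and 0.85 without the first libraries (0.000734). For Setd1b, an H3K4 methyltransferase gene, these values were 0.74 ± 0.29 (0.158) and 0.98 (0.000635). Setd4 fell without the first libraries (log2 fold change -0.40, adjusted p = 0.0213) and was the only tested gene of the 32 that did. Of the 12 genes that rose in experiment 1 with the block, 9 were among these 20: Kdm2b, Kdm4a, Kdm5c, Kdm6b, Kdm7a, Kdm8, Kmt5a, Kmt5c and Setd1b. The 20 come from the fit without the low Dox_DMSO library and make up most of the 32 genes. Such an overlap therefore says little about a shared response, and it was not tested.

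Kmt2a and Setd2, both long genes, passed the test with doxycycline in neither experiment 1 nor DMSO. Kmt2a, the mouse homologue of MLL1, stood at 92.9, 19.7 and 56.2 CPM in Exp1_NoDox and at 95.0, 28.6 and 31.1 CPM in Exp1_Dox, a log2 fold change of -0.13 ± 0.67 (edgeR, adjusted p = 0.949). Setd2, whose product trimethylates H3K36, stood at 122, 34.4 and 58.9 CPM and at 121, 38.8 and 42.7 CPM (-0.09 ± 0.60, adjusted p = 0.960). For both genes the spread within a group was several times the difference between the groups. In DMSO Kmt2a measured 44.0, 64.1 and 52.9 CPM without doxycycline against 55.9, 75.5 and 86.7 CPM with it (log2 fold change 0.44 ± 0.25, adjusted p = 0.391).

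The next comparisons asked what entinostat does to these genes over 6 h. Without doxycycline 11 of the 32 genes fell and 1, Kdm7a, rose. With doxycycline 27 fell and 0 rose, and 10 of the 11 were among the 27; Setd6 was the other. All libraries of these 2 comparisons differ. A call in 1 comparison and none in the other does not show that the effects of entinostat differ. The interaction given further below tests that difference, and it called 0 of the 32 genes. The median log2 fold change of the 32 genes was -0.37 without doxycycline, beside 0.07 over all genes, and -1.004 with it, beside 0.14. With the trend over exon length and GC content removed, these medians were -0.29 without doxycycline, beside 0.13 over all genes, and -0.30 with it, beside 0.20.

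Of all genes, 16.9% fell and 30.3% rose with entinostat without doxycycline, and 29.9% fell and 33.9% rose with it, so that over all genes higher calls outnumbered lower ones in both, and among the 32 genes lower calls outnumbered higher ones. With doxycycline, the count of 0 higher became 1 at an unadjusted p under 0.05 and 1 with DESeq2 (32.5% of all genes), in both cases Setd4, whose log2 fold change was 0.47 ± 0.20 (edgeR, adjusted p = 0.0562). Scaling by library size alone moved the median of all genes to 0.32 without doxycycline, where 5417 of 15051 genes were then called higher, and to 0.28 with it. On that scale 7 of the 32 genes fell without doxycycline (8.19% of all genes) and 23 with it (24.7%), and the 4 of the 11 not called were Kdm2b, Kdm5a, Setd1a and Setd6. Without the first Dox_DMSO and first NoDox_Entinostat libraries 14 fell without doxycycline (27.7% of all genes) and 29 with it (34.7%). The 29 were the same 27 with Kdm4c and Kdm7a. In that fit 2 genes rose without doxycycline, Kdm7a and Kdm5b (36.2% of all genes), and 1 with it, Setd4 (43.1%).

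**Figure D4:**
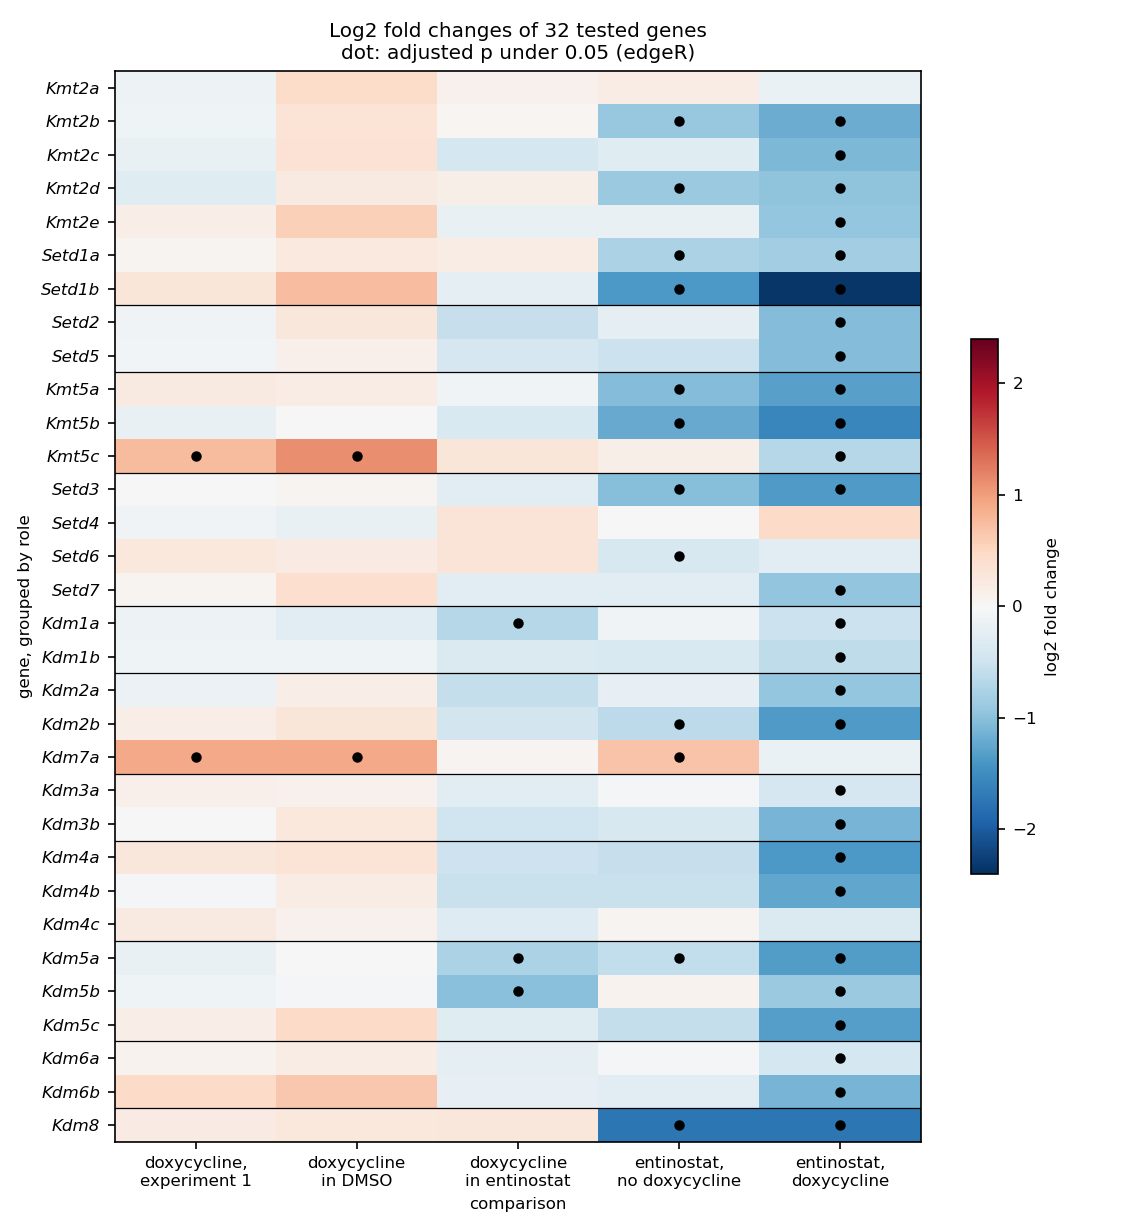
Log2 fold changes of 32 tested genes (rows, grouped by role, separated by lines) in 5 comparisons (columns), red for higher and blue for lower, with a dot where edgeR's adjusted p was under 0.05. The last column is blue for every gene but Setd4 and has 27 dots. Kdm7a and Kmt5c carry the only dots with doxycycline in experiment 1 and in DMSO.

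Among the KMT2 and SETD1 genes, 4 of 7 fell with entinostat without doxycycline (Kmt2b, Kmt2d, Setd1a and Setd1b). In the presence of doxycycline 6 of 7 fell with entinostat, all but Kmt2a. Setd1b stood at 25.3, 38.3 and 30.8 CPM in NoDox_DMSO and at 7.63, 14.1 and 14.6 CPM in NoDox_Entinostat. With doxycycline it stood at 33.7, 55.6 and 68.8 CPM in DMSO and at 8.82, 12.7 and 9.84 CPM in entinostat. No entinostat library reached any DMSO library. Entinostat changed Setd1b by log2 fold changes of -1.38 ± 0.30 without doxycycline (edgeR, adjusted p = 0.00203) and -2.33 ± 0.31 with it (4.62e-05). The latter was the largest fall with entinostat among the 32 genes in the presence of doxycycline.

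Kmt2a passed the test in neither entinostat comparison. It stood at 47.7, 64.1 and 69.4 CPM in NoDox_Entinostat and at 48.5, 90.4 and 55.6 CPM in Dox_Entinostat, overlapping the DMSO libraries given above. Its log2 fold change was 0.17 ± 0.25 without doxycycline (edgeR, adjusted p = 0.621) and -0.16 ± 0.25 with it (0.584). Its relative Kmt2b fell (-0.91 without doxycycline and -1.19 with it, log2 fold changes), as did Kmt2d (-0.90 and -0.97). Setd1a fell too (-0.76 and -0.83), but shares 51.85% of its exon bases with the gene Gm49388 on the same strand, so its counts are uncertain. Setd1a and Setd1b encode the methyltransferases that place most of the trimethylated H3K4 at promoters.

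All 3 H4K20 methyltransferase genes fell with entinostat in the presence of doxycycline, and Kmt5a and Kmt5b also without it. Kmt5b, which encodes an enzyme for di- and trimethylated H4K20, stood at 30.0, 35.2 and 34.8 CPM in NoDox_DMSO and at 9.60, 15.5 and 18.3 CPM in NoDox_Entinostat. With doxycycline it stood at 28.02, 34.5 and 36.9 CPM in DMSO and at 10.1, 11.8 and 11.7 CPM in entinostat. Entinostat changed it by a log2 fold change of -1.20 ± 0.22 without doxycycline (edgeR, adjusted p = 0.000587) and -1.57 ± 0.22 with it (7.22e-05).

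Kmt5a stood at 248, 241 and 241 CPM in NoDox_DMSO, at 91.2, 128 and 135 CPM in NoDox_Entinostat, at 222, 299 and 301 CPM in Dox_DMSO and at 120, 97.7 and 114 CPM in Dox_Entinostat. Kmt5a changed by -1.05 ± 0.19 without doxycycline (edgeR, adjusted p = 0.000658) and -1.31 ± 0.19 with it (0.000106). Neither gene's groups overlapped. Kmt5c, the gene raised by doxycycline, stood at 28.9, 33.9 and 32.3 CPM in NoDox_Entinostat and at 31.5, 44.1 and 41.4 CPM in Dox_Entinostat. With doxycycline it fell with entinostat (-0.68 ± 0.17, edgeR, adjusted p = 0.00408), and its log2 fold change without doxycycline was 0.14 ± 0.17 (0.537). The rise of Kmt5c with doxycycline in DMSO and this fall share the Dox_DMSO libraries, so they are not independent.

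Of the H3K36 methyltransferase gene Setd2 and its relative Setd5, neither passed the test with entinostat without doxycycline, and both fell with entinostat in its presence. Setd2 stood at 56.3, 78.6 and 66.2 CPM in NoDox_DMSO, at 32.02, 72.7 and 68.8 CPM in NoDox_Entinostat, at 42.8, 100 and 98.8 CPM in Dox_DMSO and at 32.9, 47.5 and 37.1 CPM in Dox_Entinostat. With doxycycline the log2 fold change was -1.04 ± 0.34 (edgeR, adjusted p = 0.0175), although the first Dox_DMSO library overlapped the entinostat libraries. Leaving out Dox_DMSO library 2 (0.0652) or 3 (0.0616), or Dox_Entinostat library 1 (0.0633) or 3 (0.0532), ended the call. Among the other SETD genes, Setd3, which encodes the histidine methyltransferase of actin, fell with entinostat (log2 fold change -1.02 without doxycycline and -1.36 with doxycycline).

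Kdm8, also called Jmjd5, had the largest fall with entinostat without doxycycline among the 32 genes. Its gene lies at mm10 chr7:125444676-125462269 on the plus strand. The 200 bases before its RefSeq start (GRCm38.p6, chr7:125444420-125444619) are shown because this gene fell the most with entinostat without doxycycline, with capitals as above.
Kdm8: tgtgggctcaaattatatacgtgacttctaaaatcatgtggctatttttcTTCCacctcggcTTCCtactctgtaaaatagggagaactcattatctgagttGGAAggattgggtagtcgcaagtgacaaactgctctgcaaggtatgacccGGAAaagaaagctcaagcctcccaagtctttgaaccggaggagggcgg
It holds GGAA 4 times, 2 on each strand. Kdm8 stood at 16.5, 18.3 and 15.8 CPM in NoDox_DMSO and at 3.66, 6.38 and 5.09 CPM in NoDox_Entinostat. With doxycycline it stood at 14.7, 22.4 and 22.9 CPM in DMSO and at 6.04, 6.41 and 5.72 CPM in entinostat. No entinostat library came near a DMSO library. Kdm8 changed by -1.74 ± 0.23 without doxycycline (edgeR, adjusted p = 5.68e-05) and -1.73 ± 0.23 with it (4.56e-05).

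**Figure D5:**
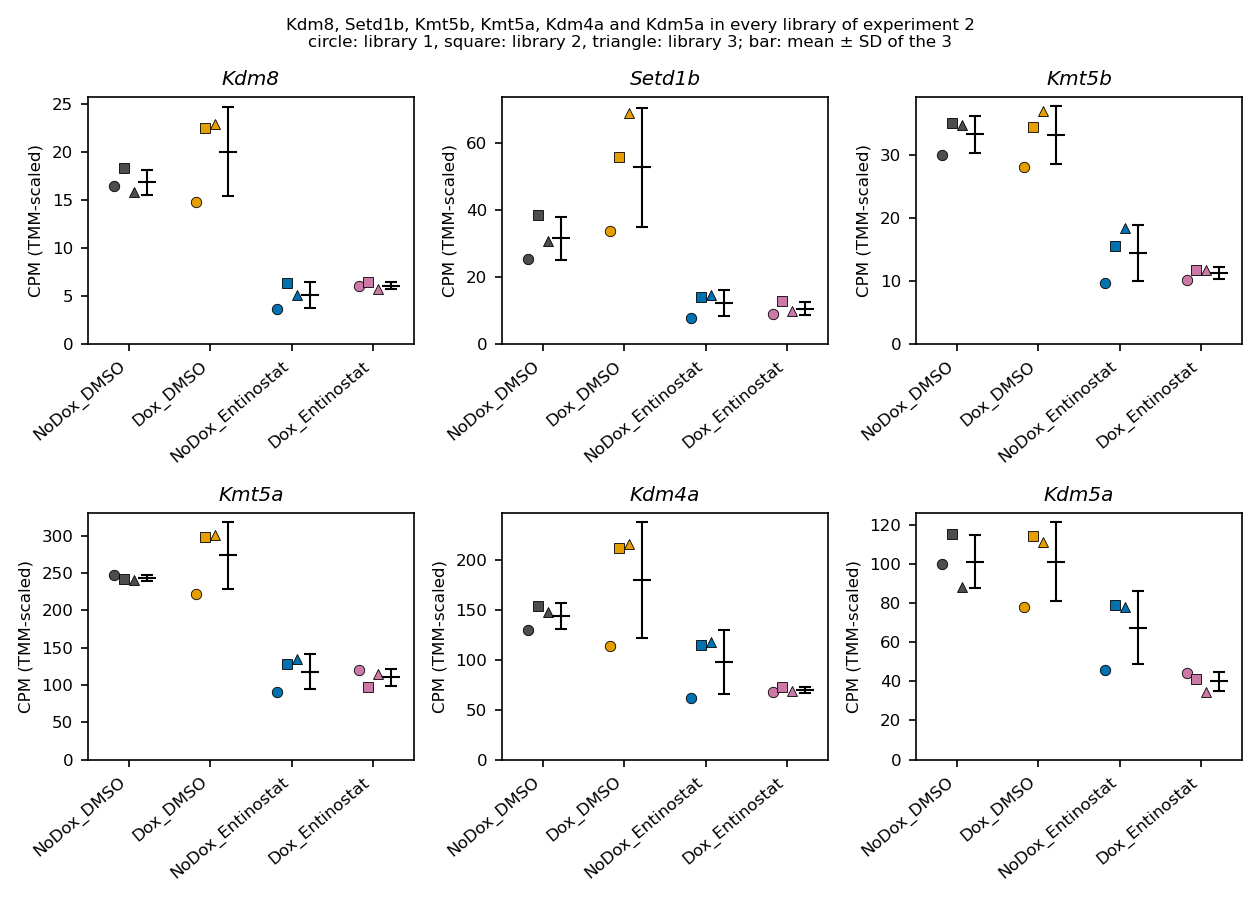
Kdm8, Setd1b, Kmt5b, Kmt5a, Kdm4a and Kdm5a in every library of experiment 2 (CPM, marker by library number) with the mean ± SD of 3 libraries. Entinostat groups lie below DMSO groups within each doxycycline condition, and the first Dox_DMSO and first NoDox_Entinostat libraries (circles) lie below the others of their groups.

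The remaining demethylase genes were called lower with entinostat mostly in the presence of doxycycline, a difference that the interaction below did not call for any gene. Of the 3 KDM4 genes tested, Kdm4a and Kdm4b fell with entinostat in the presence of doxycycline, and none passed the test without doxycycline. Kdm4a stood at 129, 154 and 148 CPM in NoDox_DMSO and at 61.3, 114 and 118 CPM in NoDox_Entinostat (log2 fold change -0.56 ± 0.27, edgeR, adjusted p = 0.107). With doxycycline it stood at 113, 211 and 215 CPM in DMSO and at 67.9, 72.6 and 68.2 CPM in entinostat (-1.37 ± 0.27, 0.000852). The groups did not overlap in either comparison.

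Of the KDM5 genes, which encode demethylases for di- and trimethylated H3K4, Kdm5a fell with entinostat in both comparisons. Kdm5b and Kdm5c fell with entinostat in the presence of doxycycline. Kdm5a stood at 99.8, 115 and 88.3 CPM in NoDox_DMSO and at 45.8, 78.9 and 77.8 CPM in NoDox_Entinostat, with a log2 fold change of -0.58 ± 0.23 (edgeR, adjusted p = 0.0493). This call was lost in 9 of 12 fits with 1 library left out, in which the highest adjusted p was 0.161, without the second NoDox_DMSO library. With doxycycline Kdm5a stood at 77.9, 115 and 111 CPM in DMSO and at 44.4, 40.9 and 34.5 CPM in entinostat (-1.34 ± 0.23, 0.000311), and that call held in all 12.

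Both KDM6 genes, Kdm6a (Utx) and Kdm6b (Jmjd3), fell with entinostat in the presence of doxycycline and did not pass the test without doxycycline. Kdm6b stood at 13.7, 23.7 and 24.6 CPM in NoDox_Entinostat and at 15.04, 20.6 and 18.6 CPM in Dox_Entinostat, beside the DMSO values given above. On the log2 scale it changed by -0.28 ± 0.26 without doxycycline (edgeR, adjusted p = 0.401) and -1.12 ± 0.26 with it (0.00243). The KDM2 genes, whose products act on H3K36 and bind CpG islands, divided. Kdm2b fell with entinostat in both comparisons (-0.63 ± 0.22, edgeR, adjusted p = 0.0330, and -1.36 ± 0.22, 0.000246). Kdm2a fell with entinostat in the presence of doxycycline (-0.93 ± 0.29, edgeR, adjusted p = 0.0143). So did the H3K9 demethylase genes Kdm3a and Kdm3b (log2 fold changes -0.40 and -1.11).

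Kdm7a was the only tested gene of the 34 that rose with entinostat without doxycycline, to 28.6, 43.1 and 40.3 CPM in NoDox_Entinostat (log2 fold change 0.68 ± 0.18, edgeR, adjusted p = 0.00803), and this call held in all 12 fits with 1 library left out. Other genes joined it under some alternatives: Kmt5c with the length and GC trend removed (0.45, adjusted p = 0.0111) and Kdm5b without the first Dox_DMSO and first NoDox_Entinostat libraries (0.36, 0.0109). With doxycycline it stood at 40.04, 36.3 and 41.3 CPM in Dox_Entinostat, within the range of Dox_DMSO (-0.17 ± 0.18, adjusted p = 0.429). The 4 groups of experiment 2 thus held mean Kdm7a levels of 23.3 ± 2.4 CPM in NoDox_DMSO, 44.1 ± 6.9 in Dox_DMSO, 37.3 ± 7.7 in NoDox_Entinostat and 39.2 ± 2.6 in Dox_Entinostat (SD, n = 3). Monocyte and macrophage markers were higher in NoDox_Entinostat too, and their part in this rise was not tested.

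Several of the other members fell with entinostat in the presence of doxycycline. Setd7, a lysine monomethyltransferase gene, went from 113 ± 10.1 to 93.0 ± 28.6 CPM with entinostat without doxycycline (log2 fold change -0.28, edgeR, adjusted p = 0.420) and fell from 149 ± 46.8 to 77.4 ± 10.4 CPM with it (-0.94, 0.00779). Setd5 just missed the threshold without doxycycline, at 123 ± 11.3 and 85.9 ± 18.3 CPM (-0.51, 0.0514), and fell with it (-1.05, 0.000733). Kdm1b, the relative of Kdm1a, had -0.36 (0.109) and -0.62 (0.00851), and shares 9.19% of its exon bases with Dek on the opposite strand. Kmt2c and Kmt2e, the latter sharing 9.31% with Srpk2, fell with entinostat in the presence of doxycycline (-1.08 and -0.93). Kdm3b shares 24.6% with Gm26538. Kdm4c had -0.35 with entinostat in the presence of doxycycline (0.0620). Setd4 was highest in Dox_Entinostat, at 24.2, 23.4 and 21.8 CPM, above Dox_DMSO at 21.5, 13.4 and 15.2 CPM, where the first library was the highest of its group.

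Of the 11 falls with entinostat without doxycycline, 8 were called in every fit with 1 library left out, and Kdm2b, Kdm5a and Setd6 were not. The highest adjusted p was 0.109 for Kdm2b, without the second NoDox_DMSO library, and 0.132 for Setd6, without the first. With doxycycline 20 of 27 were called in every such fit. The others were Kdm1a, Kdm2a, Kdm3a, Kdm5b, Kdm6a, Kmt2e and Setd2, with adjusted p of up to 0.175 (Kdm3a, without the second Dox_DMSO library). With the trend over exon length and GC content removed, 14 genes fell and 2, Kdm7a and Kmt5c, rose without doxycycline (17.7% and 35.2% of all genes), and 18 fell and 2, Kmt2a and Setd4, rose with it (26.6% and 38.0%). Of the 11 falls without doxycycline, 9 were still called in that fit, and Kmt2d and Setd6 were not. The 9 of the 27 no longer called were Kdm1a, Kdm3a, Kdm6a, Kdm6b, Kmt2b, Kmt2d, Kmt5c, Setd1a and Setd5. Kmt2d thus lost its call in both comparisons. The log2 fold change of Kmt5c with doxycycline was then 0.09 and that of Kmt2a 0.53 (adjusted p = 0.0235). Those of Kdm8 (-1.56), Setd1b (-1.26), Kmt5b (-1.01) and Setd3 (-1.02) stayed below -1.

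In cells given entinostat, doxycycline lowered Kdm1a, Kdm5a and Kdm5b, 3 of the 32 genes, and raised 0, where 15.1% of all genes fell and 8.96% rose. At an unadjusted p under 0.05 and with DESeq2 (12.8% of all genes higher), 1 gene stood higher, Setd6 (log2 fold change 0.31 ± 0.14, edgeR, adjusted p = 0.113). The median log2 fold change of the 32 genes was -0.27, beside -0.08 over all genes. Library size alone moved the latter to -0.22, and 3 genes fell on that scale too (20.9% of all genes, beside 7.35% higher). With the length and GC trend removed the median of the 32 genes was 0.13, beside -0.03 over all genes, and 11 of the 32 estimates changed sign. In that fit the same 3 genes fell and 6 rose (15.7% and 12.7% of all genes): Kdm6b, Kmt2a, Kmt2b, Kmt5c, Setd1a and Setd1b. Kmt5c had the largest of these rises (log2 fold change 0.68, adjusted p = 0.00376).

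Kdm5b stood at 49.0, 104 and 104 CPM in NoDox_Entinostat and at 42.7, 46.7 and 39.5 CPM in Dox_Entinostat. Its log2 fold change was -0.997 ± 0.28 (edgeR, adjusted p = 0.0254). The first NoDox_Entinostat library lay within 3 CPM of the highest Dox_Entinostat library, and the groups did not overlap. In DMSO Kdm5b measured 74.2, 90.7 and 78.5 CPM without doxycycline against 53.2, 94.7 and 91.0 CPM with it (-0.03 ± 0.28, adjusted p = 0.985), and in experiment 1 at 119, 113 and 113 CPM and at 115, 103 and 102 CPM (-0.11 ± 0.08, 0.478).

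Kdm1a stood at 124, 200 and 199 CPM in NoDox_Entinostat and at 117, 100 and 107 CPM in Dox_Entinostat, a log2 fold change of -0.69 ± 0.20 (edgeR, adjusted p = 0.0318). For Kdm5a the log2 fold change was -0.76 ± 0.23 (adjusted p = 0.0325). Every Dox_Entinostat library lay below every NoDox_Entinostat library for both genes. All 3 calls were lost without the second or the third library of either group, with adjusted p between 0.0671 and 0.139, and that of Kdm5b also without the first Dox_Entinostat library (0.0588). Without the first Dox_DMSO and first NoDox_Entinostat libraries, 21 genes fell and 2, Setd4 and Setd6, rose (35.7% and 26.1% of all genes), with log2 fold changes of -1.28 for Kdm5b, -0.98 for Kdm5a and -0.88 for Kdm1a.

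The interaction subtracts the effect of doxycycline in DMSO from its effect in entinostat. By the same arithmetic it is the effect of entinostat with doxycycline less its effect without doxycycline. It called 0 of the 32 genes by edgeR, where it called 0.166% of all genes above 0 and 0.106% below. At an unadjusted p under 0.05 there were 7 genes, all below 0: Kdm2b, Kdm5a, Kdm5b, Kdm6b, Kdm7a, Kmt5c and Setd1b. These 7 have no share of all genes at that threshold beside them. DESeq2 called 0 above (0.835% of all genes) and 0 below (0.882%). The estimates were below 0 for 29 of 32 genes, with a median of -0.60 beside -0.09 over all genes. With the length and GC trend removed they were below 0 for 23, with a median of -0.08 beside -0.04, and 0 genes were called.

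For Kmt5c the interaction was -0.82 ± 0.24 (edgeR, adjusted p = 0.258), from a doxycycline effect of 1.12 in DMSO and 0.30 ± 0.17 in entinostat. For Kdm7a it was -0.85 ± 0.26 (adjusted p = 0.267), from 0.92 and 0.07 ± 0.18. For Kdm5b it was -0.97 ± 0.39 (adjusted p = 0.314). With all libraries a difference between the doxycycline effects, or between the entinostat effects, was therefore not shown for any of these genes. For Kdm5b it was -1.20 (adjusted p = 0.0417) without the first Dox_DMSO library and -1.25 (0.0330) without the first NoDox_Entinostat library. Without both, 26 of 32 genes passed below 0 and 1, Setd4, above (30.0% and 21.5% of all genes), those below including Kdm5b (-1.47, adjusted p = 4.81e-06), Kdm7a (-1.13, 3.04e-05) and Kmt5c (-1.01, 0.000372). Both libraries were left out because they were low for most of the 32 genes. Leaving out either one moves the interaction of such genes down by construction, so these values are no test of its direction.

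Genes that work with these enzymes were followed as lists. Of 14 tested subunits of the KMT2 and SETD1 complexes, 6 fell and 0 rose with entinostat without doxycycline, and 11 fell and 0 rose with it, with medians of -0.54 and -1.10. The core subunit gene Wdr5 went from 142 ± 2.3 to 68.7 ± 7.8 CPM without doxycycline (log2 fold change -1.04 ± 0.15, edgeR, adjusted p = 0.000109) and from 145 ± 15.5 to 57.8 ± 2.9 CPM with it (-1.32 ± 0.15, 1.57e-05). Cxxc1, whose product takes SETD1 complexes to CpG islands, fell (log2 fold changes -0.96 and -1.29). With doxycycline in entinostat Bod1 (0.83 ± 0.22, adjusted p = 0.0195) and Dpy30 (1.33 ± 0.44, 0.0460) rose and Men1, which encodes menin, fell (-0.69 ± 0.22, 0.0418). Dpy30 spread widely, at 97.0 ± 63.2 CPM in NoDox_Entinostat and 244 ± 41.9 CPM in Dox_Entinostat. Fits with 1 library left out are not given for the genes of these lists.

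Among 12 tested partners of KDM1A, 2 rose and 2 fell with entinostat without doxycycline and 2 rose and 6 fell with it. The CoREST gene Rcor2 rose from 0.572 ± 0.051 to 5.07 ± 1.1 CPM without doxycycline (3.14 ± 0.34, edgeR, adjusted p = 1.45e-05) and from 1.16 ± 0.45 to 6.11 ± 1.6 CPM with it (2.39 ± 0.32, 5.18e-05). Phf21a, which encodes the BHC80 subunit, rose by 2.03 and 1.43. Rcor3, another CoREST gene, fell (-0.68 and -0.76). The repressor gene Gfi1b rose with doxycycline in experiment 1, from 130 ± 7.5 to 164 ± 2.9 CPM (0.33 ± 0.07, adjusted p = 0.0282).

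Of 21 tested histone lysine methyltransferase genes with other names, 4 rose and 7 fell with entinostat without doxycycline, and 3 rose and 15 fell with it. Prdm9, the H3K4 methyltransferase gene of meiotic recombination, rose from 3.57 ± 0.50 to 13.1 ± 0.94 CPM (1.88 ± 0.21, edgeR, adjusted p = 1.68e-05) and from 2.96 ± 0.30 to 17.0 ± 4.15 CPM (2.52 ± 0.21, 1.94e-06). Smyd5 fell (log2 fold changes -1.42 and -1.89). Among 10 tested JmjC genes with other names 1 rose and 5 fell without doxycycline and 1 rose and 8 fell with it. Jmjd6 led them, from 64.9 ± 4.4 to 16.8 ± 4.35 CPM (-1.95 ± 0.18, adjusted p = 5.26e-06) and from 58.4 ± 4.4 to 13.0 ± 1.0 CPM (-2.16 ± 0.18, 2.05e-06). With doxycycline in entinostat Phf8, a demethylase gene for H3K9, fell (-1.20 ± 0.31, adjusted p = 0.0200), as did Jarid2 (-1.08 ± 0.35, 0.0436), which encodes a partner of PRC2.

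Of 8 tested arginine methyltransferase genes, 6 fell and 1, Prmt2, rose with entinostat without doxycycline, and 7 fell and Prmt2 rose with it. Prmt2 went from 2.174 ± 0.37 to 8.54 ± 1.9 CPM (1.97 ± 0.23, edgeR, adjusted p = 2.89e-05) and from 1.28 ± 0.14 to 4.95 ± 0.72 CPM (1.94 ± 0.24, 3.01e-05). It was lower with doxycycline in experiment 1 (-0.95 ± 0.18, adjusted p = 0.0193) and in entinostat (-0.79 ± 0.22, 0.0274). Carm1 fell with entinostat in the presence of doxycycline (-1.72 ± 0.28, 0.000222). Over the lists, the shares of all genes called in each direction are those given above for the same comparisons.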

How the data were processed

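RNA-seq libraries came from a polyA kit without strand marks, per the labels' protocols, so genes that overlap in antisense share reads. The deposited values are raw counts per gene, in 1 table per experiment, and the authors' table for experiment 1 holds no value under 1. STAR, DESeq2, bcl2fastq 2.17.1.14 and mm10 are named, without roles, per the submitters' processing notes; counter and annotation are not given in the sources used here. Each table was fitted separately with edgeR 4.0.16 (R 4.3.3): TMM factors, filterByExpr (13811 and 15051 genes kept), quasi-likelihood tests on group means, two-sided, Benjamini-Hochberg adjustment over all genes, threshold 0.05. Standard errors are the log2 fold change divided by the square root of the F statistic. Coordinates and exon lengths came from GENCODE M21. CPM are TMM-scaled. The labels name no molecular identifiers, so reads are not taken as independent molecules.

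In experiment 1 same-number libraries correlated at 0.829, 0.724 and 0.313 in their deviations from group means, above the pairing limit of 0.1. The fits of experiment 1 without the block leave this pairing out, and the fit with it is given beside them. In experiment 2 the values ran from 0.00947 to 0.780, so its block is an alternative only. On simulated data 75% (experiment 1) and 71% (doxycycline in DMSO) of genes changed 2-fold were recovered. The simulation gave all genes the same dispersion and held no outlying library, shared deviation or length trend. These rates therefore do not carry over to the genes described. Library values are given for 6 fixed genes and, per comparison, up to 4 rises and 4 falls. Genes outside the name rule come from 5 lists, up to 3 per list and comparison. Members, lists and left-out libraries were chosen with earlier results of these data known. Alternatives were RLE factors, library size alone, other filters, DESeq2 1.42.0, counts minus 1, the replicate block, the groups alone, a removed length and GC trend (splines, 4 degrees of freedom) and libraries left out.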

Additional observations from a re-analysis of the deposited data

How the results depend on the processing

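Counts of the 32 genes called are given in both directions together. With the replicate block, 17 genes were called in experiment 1 against 2 without it, 4 in DMSO against 2, and, with the length and GC trend removed as well, 19, 6, 11 (doxycycline in entinostat, against 3) and 20 (entinostat without doxycycline, against 12). The block changed the direction of no called gene. The trend removed alone gave 4 in DMSO and 9 for doxycycline in entinostat, and the 2 groups fitted alone gave 1 for the latter. Without the first Dox_DMSO and first NoDox_Entinostat libraries the counts were 21 in DMSO, 23 for doxycycline in entinostat and 27 for the interaction. With 1 library left out they ran from 0 to 2 in experiment 1 (0 without the third library of either group), from 2 to 5 in DMSO, from 0 to 15 for doxycycline in entinostat, from 9 to 15 and from 21 to 29 for entinostat without and with doxycycline, and from 0 to 10 for the interaction. RLE factors, library size alone, other filters, DESeq2 and, in experiment 1, counts minus 1 left every count within 1.5 times. Among log2 fold changes called in either of the fits compared, signs reversed with the trend removed, without and with the block, for Kdm6b (0.391 and 0.390) and Setd1b (0.470 and 0.471) with doxycycline in entinostat, and, for entinostat with doxycycline, Kdm1a (0.0177 and 0.0183), Kmt2a (0.529 and 0.533) and Kmt5c (0.0927 and 0.0936), and with the block only Kmt2d (0.0887) and Setd1a (0.0063). Called or not, the trend removed alone turned the sign of 11 of 32 estimates for doxycycline in entinostat and 10 for the interaction, and 1 library left out turned 2 to 9 in experiment 1. The cause was not tested.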
